A study of Mus musculus with 15 samples.

Results

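Coronary vascular endothelial cells, the cells that line the vessels growing through the heart wall, were taken from a Drop-seq table of whole embryonic mouse hearts by the genes in which each cell had unique molecular identifiers (UMIs, each standing for 1 captured RNA molecule). A barcode was kept if it had at least 300 detected genes, less than 2% of its UMIs from 7 heart muscle genes (Actc1, Tnnt2, Tnni1, Tnnc1, Myl4, Myl7 and Ttn) and at least 2 UMIs of the endothelial genes Pecam1, Cdh5, Emcn, Egfl7 and Eng. It was called vascular if it had at least 1 UMI of Fabp4, Aplnr, Cd36 and Apln together, more than its UMIs of the endocardial genes Npr3, Ednrb, Klhl4 and Gpr126, and more than its UMIs of the valve endothelial genes Hapln1 and Edn1. This left 1146 cells, which were 2.25% of the 50899 barcodes with at least 300 genes and 14% of the 8207 barcodes that passed the endothelial condition. The mirror-image rule, with the endocardial genes ahead of both other groups, gave 5115 endocardial cells, the lining of the heart chambers, against which the vascular cells are described.

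Coronary vessels form during midgestation from endothelial sprouts of the sinus venosus and the endocardium, which invade the muscle wall, build a capillary plexus and later remodel into arteries and veins. Sprouting is driven by vascular endothelial growth factor and steered by Notch signalling, and the peptide apelin (Apln) marks sprouting vessels while its receptor (Aplnr) marks the plexus and the veins. Capillary endothelium of the heart takes up fatty acids for the muscle through Cd36, Fabp4 and the lipoprotein lipase anchor Gpihbp1.

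The hearts came from E14.5 embryos of the C57BL6/N background. Homozygous Adamts19 knockout (KO) hearts gave 8 libraries, of which replicates 5 to 8 carry the allele labelled tm4b (litter 7) and replicates 1 to 4 the allele labelled tm4a (litters 5 and 6). Wild-type (WT) hearts gave 7 libraries from litters 1 to 4. Adamts19 encodes a secreted metalloprotease, and the series is titled for valve disease after its loss. The sources used here do not give the deleted part of the gene or the number of embryos behind a library. No litter holds both genotypes or both alleles, and all KO libraries share a flow cell with WT replicate 5 alone. Genotype cannot be told apart from litter in any library, WT replicate 5 included, nor from flow cell in the other WT libraries.

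The libraries held 2854 to 4670 barcodes in KO and 2783 to 4914 in WT, with 5477109 to 10105950 UMIs in KO and 6215439 to 11340443 in WT. The vascular cells numbered 714 in KO, with 63 to 123 in a library, and 432 in WT, with 33 to 117. Their summed UMIs per library ran from 166955 to 337870 in KO and from 81263 to 306925 in WT, the lowest being WT replicate 1. A vascular cell had a median of 1977 UMIs and an endocardial cell 1980. Of 55053 different barcode sequences, 87 occurred in more than 1 library, and 5 vascular cells carried one of these.

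Adamts19 (chromosome 18, 58836667 to 59054060, plus strand, GRCm38) was close to the limit of detection in the vascular cells of both genotypes. It had 4 UMIs in KO vascular cells, 3 of them in replicate 4 and 1 in replicate 5, and 2 UMIs in WT vascular cells, both in replicate 1. A UMI here marks the 3′ end of a transcript and does not show whether the deleted part is in it. Endocardial cells, by comparison, had 0 UMIs of Adamts19 in KO and 41 in WT, where 6 of 7 libraries had at least 1. The reporter feature LacZ had 5 UMIs in KO vascular cells, in tm4a replicates 1, 2 and 3, and 0 in WT vascular cells, a count that allows up to 2.54 CPM over the WT group (CPM, the UMIs of a gene scaled to the same total in every sum). Vascular cells are therefore not a cell type in which the targeted gene could be followed at this depth.

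Fabp4, a fatty acid binding protein of capillary endothelium (chromosome 3, 10204088 to 10208576, minus strand), carried the gate. It had a UMI in 96.5% of vascular cells and in 6.84% of endocardial cells, and in 4.15% of the 1857 barcodes with at least 10% heart muscle UMIs, which should lack it and which had a median of 1257 UMIs. Cd36, the fatty acid translocase, had a UMI in 53.4% of vascular cells, in 4.13% of endocardial cells and in 25% of the muscle-rich barcodes, so a Cd36 UMI marks vessels less cleanly than the others. Aplnr was seen in 20.9% of vascular and 1.02% of endocardial cells, and Apln in 13.5% and 0.196%. Exactly 1 of these 4 genes was seen in 39.8% of the vascular cells and all 4 in 2.88%. Pecam1, the general endothelial adhesion molecule, had a UMI in 76.1% of vascular cells, 72.0% of endocardial cells and 1.35% of muscle-rich barcodes. These shares chose the cells and are given as a description only.

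The cells at the edge of the gate were less clearly vascular. The 130 cells that passed by a margin of 1 UMI had 1478 CPM of a 14-gene coronary and capillary list (among them Meox2, Gpihbp1, Rgcc, Cav1 and Cldn5) in the sum over their UMIs, against 4188 CPM in the 1016 cells that passed by more and 1443 CPM in the 105 cells that were left out by a tie. Endocardial cells had 2412 CPM of the same list, above the cells with a margin of 1 UMI. The list includes Fabp5, which was lower in vascular than in endocardial cells, and its part in these sums was not tested. Fibroblast and valve mesenchyme genes ran opposite to the capillary list across the margins. They were at 7051 CPM in the cells with a margin of 1 UMI, 684 CPM in those with more and 7880 CPM in the tied cells. Among all 1146 vascular cells, 13.1% had at least 3 UMIs of the fibroblast and valve mesenchyme list, 54.5% of the cardiomyocyte list and 36.1% of haemoglobin genes. The levels below describe the class as a whole against endocardial cells only. They do not tell coronary vessels from other vessels of the heart. The label is weakest in the cells with the least gate signal.

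Vascular cells made up a small and variable share of each library. In KO libraries the lowest, median and highest shares of barcodes with at least 300 genes were 1.61%, 2.59% and 3.45%, and in WT libraries 1.01%, 1.59% and 3.76%. The groups overlapped across nearly their whole range, with the lowest and the highest library both WT. Exact binomial 95% intervals, which cover counting error only, were 0.697% to 1.42% for the lowest library and 3.12% to 4.49% for the highest. The mean was 2.56% ± 0.73 in KO and 1.96% ± 0.97 in WT (SD, n = 8 and 7), a difference of 0.60 percentage points that did not pass a two-sided exact permutation test (p = 0.186, 0.279 after Benjamini-Hochberg adjustment over the 6 tests of shares). WT replicates 1 to 4 were the lowest 4 libraries of all, at 1.01% to 1.59%, and without them the difference was -0.28 percentage points (KO minus WT). As a share of the endothelial barcodes, vascular cells averaged 15.6% ± 4.8 in KO and 11.9% ± 3.7 in WT (adjusted exact permutation p = 0.241). On the shared flow cell, KO libraries differed from WT replicate 5 by 0.39 and 1.98 percentage points on these 2 scales, a comparison with a single WT library of another litter.

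**Figure D1:**
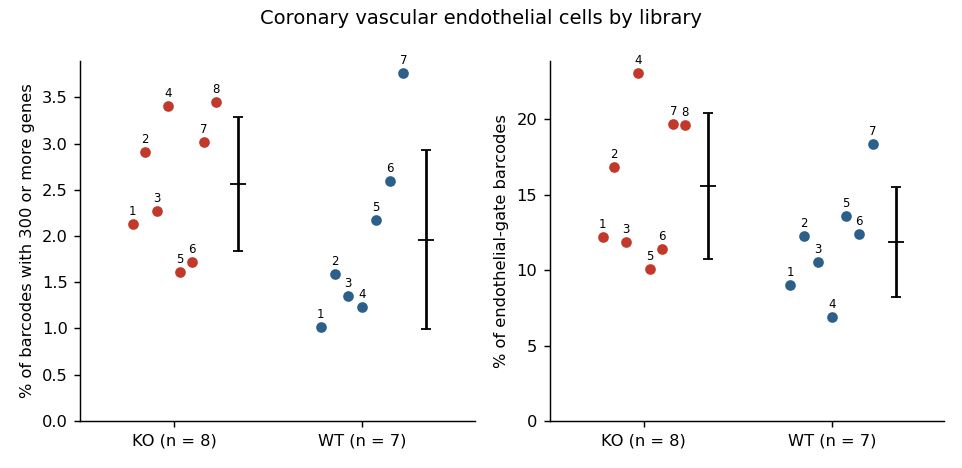
Vascular endothelial cells in each library, as a percent of barcodes with at least 300 genes (left) and of barcodes that pass the endothelial condition (right). Each point is a library with its replicate number, and the bar beside it shows the mean and SD. KO libraries sit between 1.61% and 3.45% on the left and lie within the WT range of 1.01% to 3.76%.

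Vascular cells were set against endocardial cells of the same library across all genes outside the gates. Levels were summed per library and given as CPM of the class, and the log2 ratio is that of CPM + 10 in vascular over endocardial cells of a library, as mean ± SD over 15 libraries. Because the gate chose the cells by contrast with each other, these ratios are a description with no test. Among the 4468 genes outside the gates with at least 50 CPM in the higher class, 176 (3.94%) were at least 2-fold higher in vascular cells with the same sign in 15 of 15 libraries, and 266 (5.95%) were lower to the same degree. The median ratio over 9526 genes with at least 10 CPM was -0.12.

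Sparcl1, a matricellular protein of vessel walls, had the highest ratio at this pseudocount of 10 CPM. Its level in vascular cells was 1009 CPM in the lowest library, 1527 in the median and 1815 in the highest, against 39.1, 73.7 and 160.3 CPM in endocardial cells, a log2 ratio of 4.25 ± 0.49. The ranges did not meet in any pairing of libraries. Tmem255a, a transmembrane protein, followed at 3.95 ± 0.37, then the butyrophilin-like Btnl9 at 3.78 ± 0.78 and the cell cycle regulator Rgcc at 3.68 ± 0.56. Cldn5 is the tight junction claudin of endothelium. It had 180, 344 and 803 CPM in vascular cells (lowest, median and highest library) against 12.6, 18.7 and 38.8 CPM in endocardial cells, a log2 ratio of 3.63 ± 0.68. Gpihbp1, which holds lipoprotein lipase on the capillary surface, had a log2 ratio of 3.29 ± 0.48 and Meox2, a homeobox factor of capillary endothelium, 3.15 ± 0.55. Samsn1 (3.38), the potassium channel subunit Kcne3 (3.11), Cd109 (3.07), the tip cell proteoglycan Esm1 (3.06) and Igfbp3 (3.02) completed the 12 genes with the highest ratio. The order depended on the pseudocount: with 1 CPM, Meox2 was at 5.47, Tmem255a at 5.11 and Esm1 at 5.06, ahead of Sparcl1 at 4.42. Without cells holding at least 3 UMIs of macrophage, fibroblast, mural, epicardial and erythroid genes together, Esm1 was at 2.00 and Igfbp3 at 2.171.

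Of the genes with the lowest ratio, Cdh11, Plvap, Tmem108 and Smoc1 are on the endocardial list described further on. Cdh11, a cadherin of mesenchymal and endocardial cells, had 11.7, 36.2 and 100.4 CPM in vascular cells (lowest, median and highest library) and 473, 731 and 1129 CPM in endocardial cells, a log2 ratio of -3.94 ± 0.56, the lowest at a pseudocount of 10 CPM. With 1 CPM Smoc1 was lower, at -5.23 against -4.25 for Cdh11. Plvap forms the diaphragms of fenestrae and caveolae. Its level was 0, 20.2 and 61.5 CPM in vascular cells against 209, 361 and 491 CPM in endocardial cells (-3.63 ± 0.72). Tmem108 (-3.79), carboxypeptidase E (Cpe, -3.49), Pla2g7 (-3.32), Col23a1 (-3.27), the matricellular Smoc1 (-3.25), Igfbp5 (-3.24), Prr15 (-3.23), Apoe (-3.23) and the peptidase Dpp4 (-3.21) followed. Apoe varied most between libraries of this set, from 52.5 to 1505 CPM in vascular cells, and its difference was smallest in WT replicate 4, at -0.82, which also had the most macrophage RNA (1073 CPM summed over 12 genes).

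**Figure D2:**
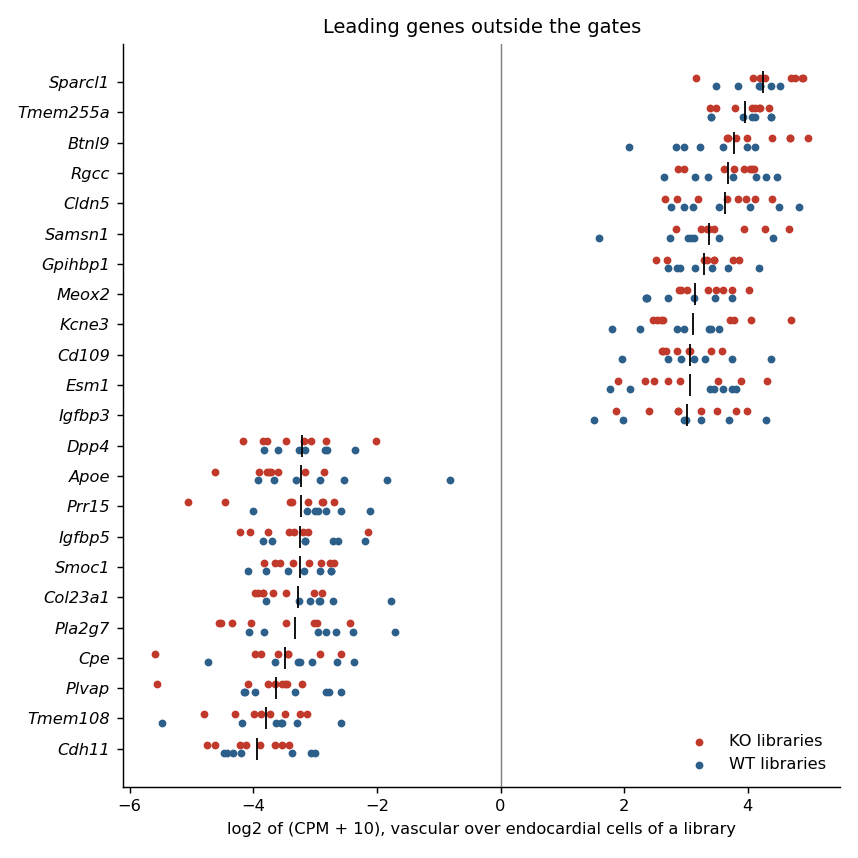
Genes outside the gates with the highest (12 genes) and lowest (11 genes) vascular over endocardial ratio. Each point is the log2 ratio of CPM + 10 in 1 library, with KO and WT libraries in different colours, and the black mark is the mean over 15 libraries. The points of every gene lie on 1 side of 0, from a mean of 4.25 for Sparcl1 to -3.94 for Cdh11.

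Genes known from coronary and capillary endothelium were mostly higher in vascular cells. Of 12 listed genes outside the gates with at least 10 CPM, 8 were higher in at least 13 of 15 libraries and 1 was lower, with a median log2 ratio of 1.96; over all 9526 genes, 13.6% were higher and 19.6% lower by that rule. Caveolin-1 (Cav1), the coat protein of caveolae, had 628, 1466 and 1877 CPM in vascular cells (lowest, median and highest library) against 207, 328 and 391 CPM in endocardial cells, a log2 ratio of 2.04 ± 0.23. The exception was Fabp5, a second fatty acid binding protein, whose ratio was -0.86 ± 0.40 and which was lower in vascular cells in 15 of 15 libraries. Fatty acid genes beyond the gate were mixed. Of 13 with at least 10 CPM, 3 were higher in at least 13 libraries (Gpihbp1, Meox2 and the lipase inhibitor Angptl4, at 1.20 ± 0.47) and 2 were lower, with a median of 0.03. The lipase Lpl itself was at -0.19 ± 0.48, higher in 7 and lower in 8 libraries. Car4, a capillary carbonic anhydrase of mature heart and lung, averaged 0.418 CPM in vascular and 5.01 CPM in endocardial cells.

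The endocardial genes that the gate did not use were low throughout. Of 15 with at least 10 CPM, 14 were lower in vascular cells in at least 13 libraries and 0 were higher, with a median of -2.33. Among them Hand2, Foxc1, Tmem100 and Gata4, transcription factors and a signalling membrane protein of the endocardial cushions and lining, had ratios of -3.07, -2.86, -2.85 and -2.12. Nfatc1, the classical endocardial and valve factor, was lower by a smaller margin (45.4 ± 20.6 against 83.1 ± 25.2 CPM, log2 ratio -0.81 ± 0.69).

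Genes of sprouting and tip cells formed the second group that stood higher. On a 15-gene angiogenic front list, 11 genes were higher in at least 13 libraries and 1 was lower, with a median log2 ratio of 1.53. The list shares Lamb1, Nid2, Col4a1 and Col4a2 with the basement membrane list and Dll4, Cxcr4 and Igfbp3 with the arterial list below. Esm1, secreted by tip cells, had 30.3, 104.0 and 228 CPM in vascular cells (lowest, median and highest library) against 0, 1.55 and 6.29 CPM in endocardial cells. The chemokine receptor Cxcr4 (2.64 ± 0.88), the mural cell attractant Pdgfb (2.16 ± 0.43), the basement membrane linker Nid2 (2.45 ± 0.30) and adrenomedullin (Adm, 1.79 ± 0.61) were each higher in 15 of 15 libraries. Angpt2, the angiopoietin of destabilised vessels, was at 18.1 ± 16.4 CPM in vascular and 5.08 ± 3.43 CPM in endocardial cells and higher in 11 libraries. Trp53i11 was the listed gene that was lower (-0.58 ± 0.23).

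Receptors of vascular growth factors divided between the classes. Kdr, the main receptor of vascular endothelial growth factor, had 349.9, 661 and 1144 CPM in vascular cells (lowest, median and highest library) against 203, 331 and 479 CPM in endocardial cells, a log2 ratio of 0.90 ± 0.26. The ranges overlapped, but within every library the vascular cells were higher. Flt4, the receptor for the C form of the factor, was at 0.74 ± 0.52 and its co-receptor Nrp2 at 2.09 ± 0.53, whereas Nrp1 was at -0.26 ± 0.28. The angiopoietin receptor Tek was lower in vascular cells (165 ± 31.0 against 507 ± 53.4 CPM, -1.58 ± 0.27), as was its partner Tie1 (-0.74 ± 0.31). The apelin pair that the gate used had 76.1 ± 21.2 CPM of Apln and 121 ± 40.2 CPM of Aplnr in vascular cells, against 0.975 ± 1.42 and 4.31 ± 3.11 CPM in endocardial cells. Ackr3, the scavenging receptor for the Cxcr4 ligand, was lower (-2.24 ± 0.63).

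Notch ligands differed between the classes. The tip cell ligand Dll4 had 102, 138 and 222 CPM in vascular cells (lowest, median and highest library) against 27.2, 40.2 and 82.4 CPM in endocardial cells, with a log2 ratio of 1.53 ± 0.42 and no overlap of the ranges. Jag2 was also higher (1.04 ± 0.72), while Dll1 (-1.83 ± 0.52) and Jag1 (-0.77 ± 0.66) were lower. The receptor Notch1 was at -0.34 ± 0.28, lower in 13 libraries, and Notch4 at 0.57 ± 0.45, higher in 14. Over the whole list of growth factor, apelin, Notch and angiopoietin signalling genes outside the gate, 8 of 22 were higher and 6 lower by the rule of 13 libraries, with a median of 0.31.

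More arterial genes were higher than lower, and venous genes were divided. Of 15 arterial genes, 7 were higher and 3 lower in at least 13 libraries, with a median of 0.58. Sox17, a transcription factor of arterial endothelium (2.51 ± 0.67), the netrin receptor Unc5b (2.48 ± 0.52) and the gap junction protein Gja5 (2.41 ± 0.71) were higher in 15 of 15 libraries. Gja4, another arterial connexin, averaged 97.5 ± 46.6 CPM in vascular and 92.9 ± 16.9 CPM in endocardial cells, a difference smaller than the spread. The kinase Bmx, listed as arterial, was at 21.6 ± 16.4 CPM in vascular and 242 ± 48.6 CPM in endocardial cells (-3.15 ± 0.87). Among 6 venous genes outside the gates, 2 were higher (Nrp2 and Flt4) and 3 lower, with a median of -0.92. Nr2f2, the factor that sets venous identity, had a ratio of -1.14 ± 0.43 and was lower in 15 of 15 libraries.

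Lymphatic endothelial cells also carry Flt4 and Pecam1. Of their defining genes, Prox1 averaged 49.9 ± 35.9 CPM in vascular and 66.9 ± 20.0 CPM in endocardial cells, Lyve1 29.3 ± 31.6 and 49.5 ± 14.9 CPM, and Pdpn 6.81 ± 6.10 and 4.75 ± 3.51 CPM. Of 4 listed genes with at least 10 CPM, only Flt4 was higher in at least 13 libraries, and 5.93% of the vascular cells had at least 3 UMIs of the list.

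Matrix genes of the vessel wall were higher in part. Sparc, a collagen-binding glycoprotein, had 3149, 3897 and 5097 CPM in vascular cells (lowest, median and highest library) against 1719, 1894 and 2597 CPM in endocardial cells, with a log2 ratio of 1.02 ± 0.14 and no overlap. Col15a1 (2.96 ± 0.49) and Nid2 were higher in 15 of 15 libraries, whereas Nid1 (-0.53 ± 0.23) and agrin (Agrn, -1.16 ± 0.41) were lower in 15 of 15. Over the basement membrane list, 7 of 14 were higher and 3 lower by the rule of 13 libraries, with a median of 0.30. Of 11 junction genes with at least 10 CPM, 6 were higher and 2 lower, with a median of 0.15. Esam (0.73 ± 0.14) stood beside Cldn5, and the epithelial-type linker Cgnl1 was lower (-2.01 ± 0.33).

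Glycolysis genes were higher nearly as a block. Of 16 with at least 10 CPM, 13 were higher in at least 13 libraries and 0 were lower, with a median log2 ratio of 1.01. Pyruvate kinase (Pkm), which makes the final step of the pathway, had 712, 1021 and 1124 CPM in vascular cells (lowest, median and highest library) against 218, 336 and 389 CPM in endocardial cells, a ratio of 1.62 ± 0.21 with no overlap. Lactate dehydrogenase (Ldha, 0.85 ± 0.27), aldolase (Aldoa, 1.18 ± 0.25) and the lactate exporter Slc16a3 (1.69 ± 0.43) were each higher in 15 of 15. Oxidative phosphorylation genes were shifted less, with 27 of 45 higher, 2 lower and a median of 0.25. Muscle-rich barcodes also had a high summed glycolysis level (6132 CPM, against 4555 in vascular and 1944 in endocardial cells). The cardiomyocyte list had a median of -0.14 with 1 of 14 genes higher, and the part of muscle RNA in the glycolysis levels was not tested.

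Several genes that respond to blood flow were lower in the vascular cells. Klf2, the transcription factor induced by laminar shear, had 15.4, 76.4 and 271 CPM in vascular cells (lowest, median and highest library) against 259, 397 and 900 CPM in endocardial cells, a log2 ratio of -2.40 ± 0.79. Klf4 was at -1.24 ± 0.78 and thrombomodulin (Thbd) at -0.95 ± 0.75. Within the list, 4 of 11 genes outside the gates were lower and 2 higher (Gja5 and the phosphodiesterase Pde2a, at 1.92 ± 0.50), with a median of -0.27. Nos3, the endothelial nitric oxide synthase, was at -0.27 ± 0.45, lower in 12 libraries.

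More vascular than endocardial cells carried cell cycle RNA. No cell cycle gene was used by the gates, so the shares of cycling cells were tested. A cell was counted if it had at least 2 UMIs of a 40-gene mitosis list after each cell had been thinned at random to 1000 UMIs, which left out 312 shallower vascular and 1081 endocardial cells. The lowest, median and highest library had 41.9%, 60.5% and 76.0% of vascular cells in the count, against 19.3%, 28.4% and 41.8% of endocardial cells. The vascular share was higher within each of 15 libraries, by 15.3 to 56.7 percentage points. The mean was 60.3% ± 10.1 in vascular and 29.5% ± 6.8 in endocardial cells, a difference of 30.8 ± 11.2 percentage points (two-sided exact sign-flip test, p = 6.1e-05, the smallest that 15 pairs can give, adjusted p = 0.000183). The mean difference was 33.3 points in KO and 28.0 points in WT libraries. Over all libraries 499 of 834 vascular cells (59.8%, exact 95% interval 56.4% to 63.2%) were counted, against 1179 of 4034 endocardial cells (29.2%, 27.8% to 30.7%). These intervals pool the cells and leave out the spread between libraries. Valve endothelial cells, chosen by Hapln1 and Edn1, gave 33% of 784. Without thinning the pooled shares were 69.8% of vascular and 44.8% of endocardial cells.

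DNA replication genes moved the same way by less. By the same count on a 33-gene list, the lowest, median and highest library had 50%, 67.6% and 78.0% of vascular cells, against 36.1%, 51.5% and 59.0% of endocardial cells. The means were 66.0% ± 8.6 in vascular and 49.9% ± 5.4 in endocardial cells, a difference of 16.1 ± 9.96 percentage points that was positive in 15 of 15 libraries (adjusted exact sign-flip p = 0.000183). Without thinning the difference was 6.86 percentage points and did not pass (adjusted exact sign-flip p = 0.121).

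Gene by gene, 32 of the 40 mitosis genes were higher in vascular cells in at least 13 libraries and 0 were lower, with a median log2 ratio of 0.67. Topoisomerase Top2a, which untangles replicated chromosomes, had 278, 522 and 800 CPM in vascular cells (lowest, median and highest library) against 199, 307 and 427 CPM in endocardial cells (0.75 ± 0.31). The ranges overlapped, but the vascular cells were higher within every library. The proliferation antigen Mki67 (0.79 ± 0.40), the kinase Cdk1 (0.73 ± 0.34), survivin (Birc5, 1.07 ± 0.33) and the checkpoint kinase Bub1 (1.16 ± 0.45) were higher in 15 of 15. Of 33 replication genes, 9 were higher and 1 lower by that rule, with a median of 0.30.

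**Figure D3:**
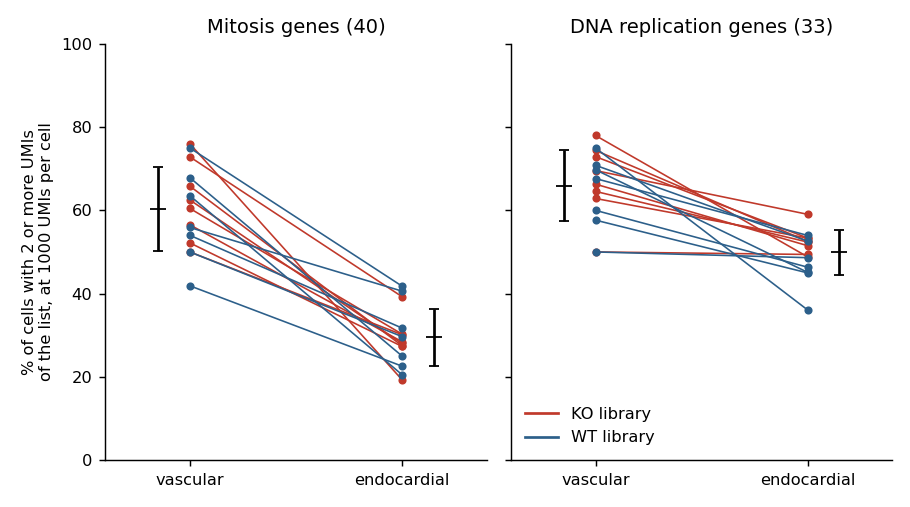
Percent of cells with at least 2 UMIs of the mitosis list (left) or the DNA replication list (right) after thinning to 1000 UMIs, in vascular and endocardial cells. A line joins the 2 values of a library, and the black bars show mean and SD over 15 libraries. All lines fall towards the endocardial side, with means of 60.3% against 29.5% for mitosis and 66.0% against 49.9% for replication.

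The genotypes did not differ detectably in the share of cycling vascular cells. Mitosis was counted in 50%, 61.5% and 76.0% of KO vascular cells (lowest, median and highest library) and in 41.9%, 55.9% and 75% of WT vascular cells, ranges that overlap almost fully. The means of 62.0% ± 9.3 in KO and 58.3% ± 11.3 in WT differed by 3.74 percentage points (adjusted two-sided exact permutation p = 0.524, n = 8 and 7). Replication was counted in 67.3% ± 8.7 of KO and 64.4% ± 8.8 of WT vascular cells (adjusted exact permutation p = 0.524). Against WT replicate 5 alone, the library on the same flow cell and the lowest of all for mitosis, the KO mean was 20.2 points higher for mitosis and differed by -2.44 points for replication.

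Vascular cells with a UMI of Apln were compared with those without, as a description, since the gate used Apln and single UMIs split the cells. The 155 Apln-positive cells were deeper, with a median of 4222 UMIs against 1767 in the 991 Apln-negative cells, and the part of depth in what follows was not tested. Levels are CPM of each group's summed UMIs, with the number of libraries in which the positive cells were higher. Positive log2 ratios of CPM + 10 were found for 13 of 15 angiogenic front genes (from -0.62 to 1.06), 10 of 15 arterial genes (from -1.67 to 1.46) and 2 of 7 venous genes (from -1.36 to 0.32). Of 18 fatty acid genes, 11 were positive. No share over all genes is given beside these counts, so they do not set any of the lists apart. Some positive ratios did not hold in most libraries: Nid2 was higher in 6 of 15, and Adm, Sox17 and Unc5b in 7 each. Gja5, the arterial connexin, stood at 143 CPM in positive and 45.6 CPM in negative cells (log2 ratio 1.46, 10 of 15 libraries). Tip cell genes went the same way. Esm1 was at 171 and 76.4 CPM (11 libraries), Cxcr4 at 165 and 74.8 CPM (11 libraries), and Igfbp3 at 983 and 520 CPM (12 libraries). Type IV collagen Col4a2 and the adhesion molecule Mcam were higher in 13 of 15 libraries, with ratios of 0.55 and 0.66. The gate gene Fabp4 was higher in positive cells too, at 8516 and 6496 CPM (14 libraries). Cd36 was at 537 and 518 CPM and Aplnr at 119 and 122 CPM. Averaged over libraries, the glycolysis list summed to 5182 ± 1179 CPM in positive and 4367 ± 730 CPM in negative cells. The endocardial list outside the gate summed to 345 ± 133 and 514 ± 136 CPM in the same order. A shift particular to tip cell genes was not tested.

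Other genes of the angiogenic front, arterial and venous lists differed little or the other way. Angpt2 was at 11.8 CPM in Apln-positive and 22.8 CPM in Apln-negative cells, and Dll4 at 177 and 156 CPM. The elastic fibre gene Fbln5 was lower in positive cells (23.5 against 96.8 CPM, 13 of 15 libraries). Among venous genes Nr2f2 was at 75.04 CPM in positive and 102 CPM in negative cells, and Lyve1 at 7.36 and 34.4 CPM in the same order. Cycling genes differed little, with Top2a at 567.9 CPM in positive and 510.2 CPM in negative cells and Mki67 at 282 and 291 CPM. Tcf15, the partner of Meox2 in heart capillaries, was at 45.6 CPM in positive and 16.4 CPM in negative cells and higher in positive cells in 10 libraries.

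Between genotypes, 2 of 3908 genes tested on the UMIs of vascular cells summed per library passed an adjusted p of 0.05 (0.0512%; 1 higher and 1 lower, 0.0256% each), with edgeR's quasi-likelihood test and Benjamini-Hochberg adjustment over all genes. The labels name the libraries as replicates but do not say whether each is a separate embryo, so p-values measure the spread between libraries. At an unadjusted p of 0.05, 397 genes passed, and DESeq2 called 15. Levels in this comparison are CPM over the tested genes scaled by the normalisation factors of edgeR. In summed cells, fewer expressing cells and less RNA per cell cannot be told apart.

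Nppa, the atrial natriuretic peptide made by heart muscle (chromosome 4, 148000722 to 148002079, plus strand), fell in KO. It had 74.4, 112 and 168 CPM in KO libraries (lowest, median and highest) and 187, 260 and 456 CPM in WT libraries. Every KO library was below every WT library, as was the case, in either direction, for 10 genes (0.256%). The means were 115 ± 34.9 and 308 ± 98.8 CPM and the log2 change was -1.36 (SE 0.21, adjusted p = 0.00466 by edgeR). The endocardial cells of the same libraries showed a log2 change of -1.20 (SE 0.22, edgeR adjusted p = 0.0159).

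Nppa is a muscle gene, and muscle RNA moved with it. The 9 tested genes of the cardiomyocyte list all had negative log2 changes, with a median of -0.69 against -0.01 over all genes, and only Nppa passed. Their summed level over all 15 listed genes was 1082 to 2840 CPM of the class in KO and 1476 to 2818 CPM in WT, and none of the 15 was at 0 in either group. The 7 muscle genes of the gate were all negative too, with a median of -0.58 and 0 called, and summed to 687 to 3465 CPM in KO and 1140 to 3008 CPM in WT. In the muscle-rich barcodes Nppa stood at 18356 ± 4225 CPM in KO and 20518 ± 4908 CPM in WT. The Nppa level of vascular cells was 3.80% ± 1.16 of the level over all barcodes of the library in KO and 8.76% ± 4.21 in WT. The part of free or co-captured muscle RNA in the Nppa difference was not tested. Without WT replicates 1 to 4, the Nppa change was -0.99 and no longer passed (edgeR adjusted p = 0.0679).

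Kif23, a kinesin that bundles microtubules between dividing cells (chromosome 9, 61915905 to 61946774, minus strand), rose in KO. It had 205, 292 and 320 CPM in KO libraries (lowest, median and highest) and 116, 149 and 183 CPM in WT libraries, again without overlap. The means were 278 ± 42.9 and 151 ± 25.8 CPM and the log2 change was 0.89 (SE 0.16, adjusted p = 0.0139 by edgeR). It did not pass without WT replicate 5 (log2 change 0.84, edgeR adjusted p = 0.0739) or without WT replicate 7 (0.89, edgeR adjusted p = 0.0565). With counts summed per litter, edgeR called 3 genes, all lower in KO (Nppa, Apoe and C1qb), and Kif23 was not among them. WT replicate 5, the sole WT library on the KO flow cell, had the lowest Kif23 level of all. With the flow cell as a covariate, the log2 change was 1.25 for Kif23 and -1.10 for Nppa, and neither passed (edgeR adjusted p = 0.554 and 0.723).

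Kif23 belongs to the mitosis list, of which 34 genes were tested. Of these, 31 had positive log2 changes (1882 of 3908 over all tested genes) with a median of 0.25, and Kif23 was the 1 that passed. Those with the highest levels gave no call. Top2a had 624 ± 73.6 CPM in KO and 627 ± 211 CPM in WT (0.02), Cdk1 441 ± 98.8 and 345 ± 105 CPM (0.33) and Ube2c 420 ± 112 and 359 ± 141 CPM (0.24). Pcna, the replication clamp, had 422, 475 and 527 CPM in KO (lowest, median and highest library) and 169, 328 and 378 CPM in WT. The groups did not overlap, but the log2 change of 0.66 (SE 0.15) did not pass (edgeR adjusted p = 0.190). Replication genes as a list were even, with 15 of 26 positive, a median of 0.03 and 0 called.

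**Figure D4:**
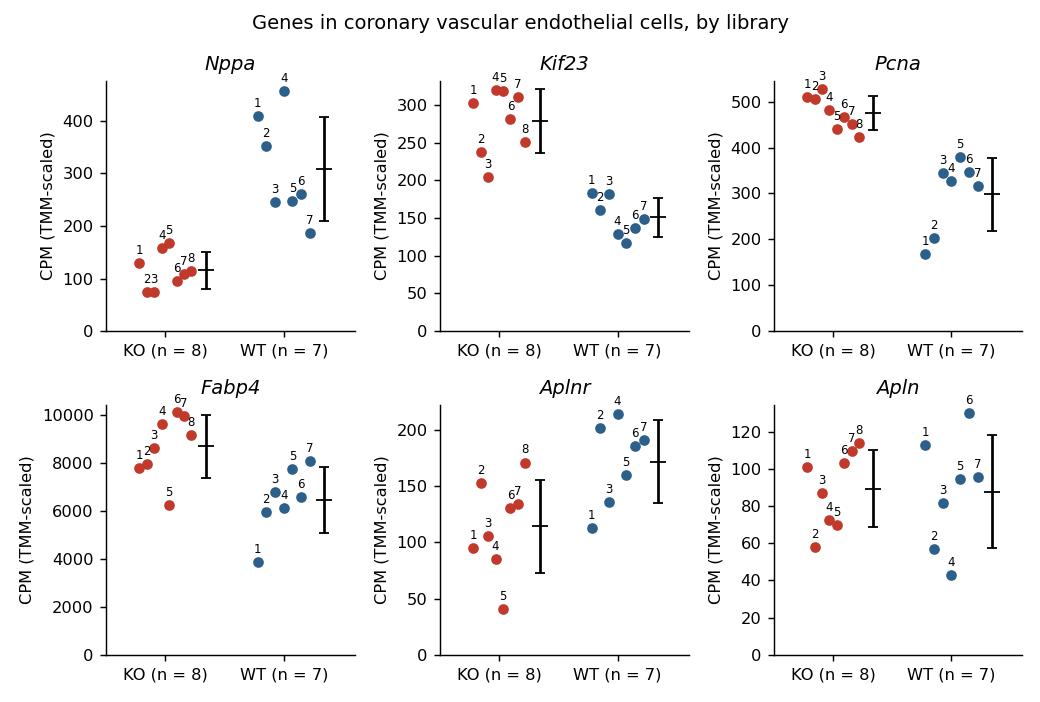
CPM scaled by edgeR's normalisation factors, in vascular endothelial cells of each library, for Nppa, Kif23, Pcna, Fabp4, Aplnr and Apln. Points are libraries with their replicate number, and bars are mean and SD. Nppa (74.4 to 168 CPM in KO, 187 to 456 in WT) and Kif23 (205 to 320 in KO, 116 to 183 in WT) passed the test, and Pcna, Fabp4, Aplnr and Apln did not.

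The genes that define the cells gave no call. Fabp4 had 6239, 8895 and 10118 CPM in KO (lowest, median and highest library) and 3858, 6595 and 8095 CPM in WT, a log2 change of 0.43 (SE 0.14, edgeR adjusted p = 0.332). Aplnr had 40.6, 118 and 171 CPM in KO against 113, 186 and 214 CPM in WT (-0.58, SE 0.22, edgeR adjusted p = 0.371). The ranges of both genes overlapped between genotypes. Cd36 was at 652 ± 165 CPM in KO and 492 ± 178 CPM in WT, and Apln at 89.3 ± 20.7 and 87.7 ± 30.3 CPM. Since a cell enters the class through these 4 genes, their levels also depend on the gate. Pecam1 had a log2 change of 0.28 (edgeR adjusted p = 0.491).

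Capillary, arterial and tip cell genes gave 0 calls of 10, 13 and 12 tested, with median log2 changes of -0.11, 0.04 and 0.07. Over all genes 2 of 3908 (0.0512%) were called, so 0 calls in lists of this size do not set them apart. Cldn5 had 394 ± 114 CPM in KO and 522 ± 273 CPM in WT, Meox2 133 ± 53.7 and 93.9 ± 44.3 CPM, and Igfbp3 862 ± 407 and 509 ± 358 CPM, with ranges of 1 SD that overlapped in each case. Dll4, the Notch ligand, was at 202 ± 53.5 CPM in KO and 149 ± 20.6 CPM in WT (0.47, SE 0.18, edgeR adjusted p = 0.378). Kdr was at 767 ± 186 and 757 ± 286 CPM and Flt1, the decoy receptor, at 524 ± 89.5 and 478 ± 167 CPM. Venous Nr2f2 was at 96.4 ± 32.1 and 128 ± 37.8 CPM. Glycolysis genes gave 0 calls of 12, with a median of -0.07. Tcf15 and Angpt2 were too low to be tested.

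Some genes that passed between genotypes in endocardial cells did not in vascular cells. The endocardial test, added after seeing the data, called 55 of 8830 genes. Endocardial sums averaged 856917 UMIs per library against 211915 in vascular cells, so the vascular test had fewer counts and a missing call there shows no contrast. The cell cycle inhibitor Cdkn1c had 737 ± 252 CPM in KO and 501 ± 353 CPM in WT vascular cells, a log2 change of 0.56 (edgeR adjusted p = 0.493) beside 0.83 in endocardial cells (edgeR adjusted p = 0.0193). WT replicate 3 stood apart at 1273 CPM, and without it the vascular change was 0.98 (edgeR adjusted p = 0.0672, against 0.0672 to 0.660 over all fits that left out 1 library). The splicing regulator Tra2a had 317 ± 49.4 CPM in KO and 225 ± 65.4 CPM in WT (0.52, edgeR adjusted p = 0.332) beside 0.84 in endocardial cells (edgeR adjusted p = 0.00579). Gm10076, annotated as a long intergenic non-coding RNA, had 104 ± 50.03 CPM in KO and 280.2 ± 215 CPM in WT (-1.36, edgeR adjusted p = 0.219) beside -1.56 (edgeR adjusted p = 0.00579). None of the 3 passed the test of the difference between the classes (edgeR adjusted p = 0.941, 0.789 and 0.946).

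Several lists leaned to 1 side without a call. Over all 3908 tested genes, 1882 log2 changes were positive and 2026 negative. Of 44 oxidative phosphorylation genes, 39 were negative with a median of -0.20, and the most abundant, Cox4i1, had 2069 ± 230 CPM in KO and 2153 ± 163 CPM in WT. Of 10 heat shock genes, 9 were positive with a median of 0.19, led in level by the chaperone Hsp90ab1 (7588 ± 516 and 6620 ± 1065 CPM). The 5 tested fibroblast and valve mesenchyme genes were all negative (median -0.70), and that list summed to 394 to 2130 CPM of the class in KO and 675 to 3486 CPM in WT. Macrophage genes summed to 53.9 to 85.9 CPM in KO and 35.8 to 1073 CPM in WT, the highest being WT replicate 4. The part of RNA from these other cells in the differences was not tested.

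The KO over WT difference in vascular cells was set against that in endocardial cells with a term for cell class by genotype, fitted with the library as a block. Of 7086 genes, 1 passed (0.0141%), while 476 did at an unadjusted p of 0.05 and DESeq2 called the same gene alone. This was Cyr61, a matricellular protein induced by mechanical and YAP signalling. In vascular cells Cyr61 had 162, 249 and 357 CPM of the class in KO (lowest, median and highest library) and 153, 222 and 394 CPM in WT, ranges that coincide. In endocardial cells it averaged 283 ± 123 CPM in KO (138 to 538) and 146 ± 53.8 CPM in WT (91.0 to 255). Vascular cells were above endocardial cells of the same library in 1 of 8 KO libraries and in 7 of 7 WT libraries. The log2 change of KO over WT was -0.08 in vascular cells (SE 0.20, edgeR adjusted p = 0.928) and 0.92 in endocardial cells (SE 0.23, edgeR adjusted p = 0.0579), and the difference between them was -0.98 (SE 0.15, edgeR adjusted p = 0.00142). It kept its call in each fit that left out 1 library (edgeR adjusted p = 0.000761 to 0.0190), and did not pass without the 41.0% of vascular and 60.3% of endocardial cells that held at least 3 UMIs of macrophage, fibroblast, mural, epicardial and erythroid genes together (-0.90, edgeR adjusted p = 0.459).

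Klf2 and Rhob, a flow-responsive factor and a small GTPase, had differences between the classes of similar size that did not pass. For Klf2 the log2 change was -0.51 in vascular and 0.62 in endocardial cells, and for Rhob 0.26 and 1.23 (edgeR adjusted p of the difference 0.194 for each). In endocardial cells alone Rhob and Pcna passed between genotypes (edgeR adjusted p = 0.00513 and 0.0259) and Klf2 did not (edgeR adjusted p = 0.168). The vascular changes moved with single libraries. Klf2 ran from -0.67 without WT replicate 3 to -0.21 without WT replicate 1, and Rhob from 0.038 without KO replicate 8 to 0.52 without WT replicate 1. Nppa, with -1.36 and -1.20, and Pcna, with 0.66 and 0.76, differed by -0.11 and -0.05 between the classes (edgeR adjusted p = 0.973 and 0.996).

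The alleles tm4b and tm4a were compared within KO. Of 4630 genes 0 passed (0%) with edgeR, 504 had an unadjusted p under 0.05, and DESeq2 called 16. Allele and litter cannot be told apart here. Gja4 had the largest contrast among the named vessel genes, at 145 ± 75.1 CPM in tm4b and 59.3 ± 30.4 CPM in tm4a libraries (log2 1.17, SE 0.36, edgeR adjusted p = 0.327, n = 4 each). Jun, an immediate early factor, was at 751 ± 239 and 407 ± 131 CPM (0.87, edgeR adjusted p = 0.327).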

How the data were processed

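The deposited table gives raw UMI counts of 16809 genes in 55152 barcodes. The submitters' processing notes name mm10, Seurat 2.1 and bcl2fastq 2.17, without the role of each. Cells were chosen by the stated gates, after which UMIs were summed per library and class. The cells and the gene lists were chosen with earlier results of these data known.

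Sums were tested with edgeR 4.0.16 in R 4.3.3 (quasi-likelihood, TMM factors, filterByExpr), with DESeq2 1.42.0 as an alternative, and the test was checked on simulated data. Benjamini-Hochberg adjustment ran over all genes. Shares were compared over libraries by two-sided exact tests (scipy 1.17.1). Gene positions are those of GENCODE vM21. Doublets were not called. Leaving out likely doublets (at least 3 UMIs of macrophage, fibroblast, mural, epicardial and erythroid genes together) stands as an alternative. The name is loose, because the rule is not scaled to the UMIs of a cell. It left out 41.0% of vascular and 60.3% of endocardial cells, and doublets among them cannot be told apart from deep cells. Genes named between genotypes were those past adjusted p 0.05, the gate genes and a set panel; between classes, the 12 highest and 12 lowest ratios, of which 1 is not reported here; in lists, the most abundant members. Other list genes were picked for their role after their values were seen. Intervals cover counting error only.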

Additional observations from a re-analysis of the deposited data

Results flagged for a closer look

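Of 62 groups of libraries tested for a single library far from the others, 7 stood out, against about 1 in 20 by chance. WT replicate 1, which had the fewest vascular UMIs, gave 4 of them. It had the lowest Cd36 level among WT libraries, at 113 CPM with the next at 473. Its Klf2 (310 CPM, next 124), Gja5 (296 CPM, next 86.7) and Rhob (352 CPM, next 164) were the highest in WT. Rhob was also far out in KO replicate 8, at 327 CPM with the next KO library at 168. Cdkn1c, an inhibitor of the cell cycle, reached 1273 CPM in WT replicate 3, with the next WT library at 503. In endocardial cells, 59.0% of KO replicate 1 counted for DNA replication, with the next KO library at 53.4%.

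Cyr61 differed between the classes in its change with genotype, by -0.98 on the log2 scale (vascular minus endocardial change of KO over WT; edgeR adjusted p = 0.00142), with no change detected in vascular cells and a higher level in KO endocardial cells that did not pass on its own.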

How the results depend on the processing

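The 2 genes called between KO and WT depended on the setting. None was called with at least 2 vascular gate UMIs (0), without likely doublets (0, with 41.0% of the vascular cells left out and 1723 genes tested), with the flow cell as a covariate (0), or with tm4a (0) or tm4b (0) alone against WT. The count was 4 without the 5% of cells with most UMIs, 49 with no filter on low counts, 15 with DESeq2, 12 without WT replicates 1 to 4 (an alternative chosen after seeing the data) and 1 to 4 when 1 library was left out, with 1 without WT replicate 5 or 7 and 4 without WT replicate 1 or 3. The replicate block left 1 call, Nppa at -1.40; the numbers did not pair the samples, with correlations of same-numbered libraries from -0.25 to -0.02 and none the best for its own number. Counts summed per litter gave 3 calls, all lower in KO (Nppa, Apoe and C1qb), without Kif23. The cause of these changes was not tested beyond the fewer cells and libraries named.

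Between alleles, 40 genes were called with no filter, 16 with DESeq2, and 0 to 1 when 1 library was left out, the 1 without KO replicate 2. The cell class by genotype term called 3 genes without likely doublets, 28 with no filter and 1 to 3 with 1 library left out (3 without WT replicate 5, and 2 without WT replicate 4 or KO replicate 5, 6 or 8). Genes at least 2-fold higher in vascular cells numbered 108 without likely doublets. KO minus WT reversed to -0.28 percentage points for the vascular share of cells without WT replicates 1 to 4, to -3.34 for mitosis with no thinning and to -2.44 for replication within the shared flow cell. The replication difference from endocardial cells was 6.86 with no thinning and no longer passed.

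Of the named genes without a call, Apln changed sign with endothelial UMIs of at least 3 (0.12), muscle UMIs under 1% (0.033), no filter (0.068), litter sums (0.049) and tm4b alone (0.16), and ran from -0.10 to 0.13 with 1 library left out. Jun turned with likely doublets left out (-0.091), the flow cell (-0.40), the block (-0.065), litter sums (-0.056) and tm4a (-0.36), and ran from -0.047 to 0.26. The flow cell covariate in effect sets KO against WT replicate 5 alone. Under it Klf2 was 0.091, Klf4 -0.093, Cldn5 0.31, Meox2 -0.24 and Nr2f2 0.31. Kdr turned with 2 gate UMIs (-0.025), without likely doublets (-0.31), without the deepest cells (-0.015) and in tm4a (-0.25), with -0.049 to 0.20 over single libraries. Esm1 turned without the deepest cells (0.18), with no filter (5.9e-05), in litter sums (0.015) and in tm4a (0.035), with -0.31 to 0.084. Gja4 was 0.12 and Gja5 0.0074 in tm4b, Gja5 0.17 without WT replicates 1 to 4 and -0.29 to 0.30 over single libraries, and Gpihbp1 0.21 in tm4a and -0.21 to 0.073. The other 255 values of the shares and gene counts under an alternative kept their direction and call or stayed close to the main count. Depth limits the rarer genes: the smallest WT library holds 81263 vascular UMIs.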
